A study of Sus scrofa with 28 samples.

Results

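PLA1A, AGPAT5, GNPAT and PTGES3 encode enzymes that cut, build or draw on membrane phospholipids. They were taken here as a group because the study listed each of them among genes differing between its genetic types, and every probe set carrying one of these names was used. This gave 5 of the 5226 probe sets in the deposited table, for 4 of its 2117 named genes. AGPAT5 was measured by 2 probe sets, and the second of them is not in the study's list. The probe set for GNPAT is named by the study alone, since the annotation of the array has no entry for it. Except for the second AGPAT5 probe set, the study selected these probe sets, GNPAT included, on these same arrays. The tests of genetic type below are therefore no independent evidence for the 4 probe sets in the study's list.

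Loin muscle (*Longissimus dorsi*) came from 28 males slaughtered at weaning, at 28 days. They were 14 purebred Iberian piglets (IB) and 14 crosses of Duroc with Iberian (DU×IB), all suckled by their mothers until then. The mothers of both genetic types were Iberian sows, in separate groups, and the sires were Iberian or Duroc boars. Paternal breed, crossing as such and the mothers therefore cannot be told apart in this comparison. The Iberian is a fat local pig breed and the Duroc a commercial sire breed. Total RNA of each piglet was hybridized to 1 Affymetrix porcine genome array, and the litter each piglet came from is not in the labels. The study bred fewer crossbred than purebred litters, and fewer crossbred litters than crossbred piglets. Littermates therefore entered the tests as independent animals, and p-values are too small to the extent that littermates are alike.

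Phospholipases free fatty acids and lysophospholipids from membranes. PLA1A is a secreted phospholipase A that acts on phosphatidylserine and releases lysophosphatidylserine, a lipid mediator of immune cells. AGPAT5 adds a second acyl chain to lysophosphatidic acid, which gives phosphatidic acid, the precursor of phospholipids and triglycerides. GNPAT acylates dihydroxyacetone phosphate in peroxisomes, which opens the synthesis of ether lipids and plasmalogens. PTGES3, also called p23, is a co-chaperone of HSP90 and a cytosolic prostaglandin E synthase.

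Values are log2 levels after GCRMA, and differences are given as DU×IB minus IB. The arrays fell into 2 hybridization series, recovered here from 10 spike-in control probe sets whose mean was 8.93 to 9.68 on 16 arrays and 6.19 to 7.01 on 12. Each series held equal numbers of both genetic types, 8 and 8 or 6 and 6. Array medians ran from 6.01 to 6.71 in the series of 16 and from 6.87 to 7.05 in the series of 12. RYR1 and ATP2A1, the calcium channel and calcium pump of muscle fibres, were the only 2 of 20 listed fibre markers in the table. Their mean level ran from 11.56 to 13.42, which fits the labelled tissue. Other fibre markers were not analysed here.

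PLA1A was lower in DU×IB piglets. In IB piglets its log2 level ranged from 2.65 to 6.78 with a median of 4.2. In DU×IB piglets it ranged from 2.64 to 3.48 with a median of 3.21. All 14 crossbred piglets lay below the IB median, and 10 of the 14 IB piglets lay above the highest crossbred. The lowest IB piglets reached down into the crossbred range. Means were 4.45 ± 1.26 in IB and 3.15 ± 0.26 in DU×IB (SD, n = 14 each), a difference of -1.30 (SE 0.32, 95% interval -1.96 to -0.64), or a 2.47-fold higher level in IB relative to a crossbred level near background. This passed the threshold of 0.10 (limma, adjusted p = 0.0492 over all probe sets). PLA1A was the only one of the 5 probe sets that passed, against 0.995% of all probe sets in either direction and 0.23% higher in IB. By p it ranked 34 among all probe sets.

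**Figure D1:**
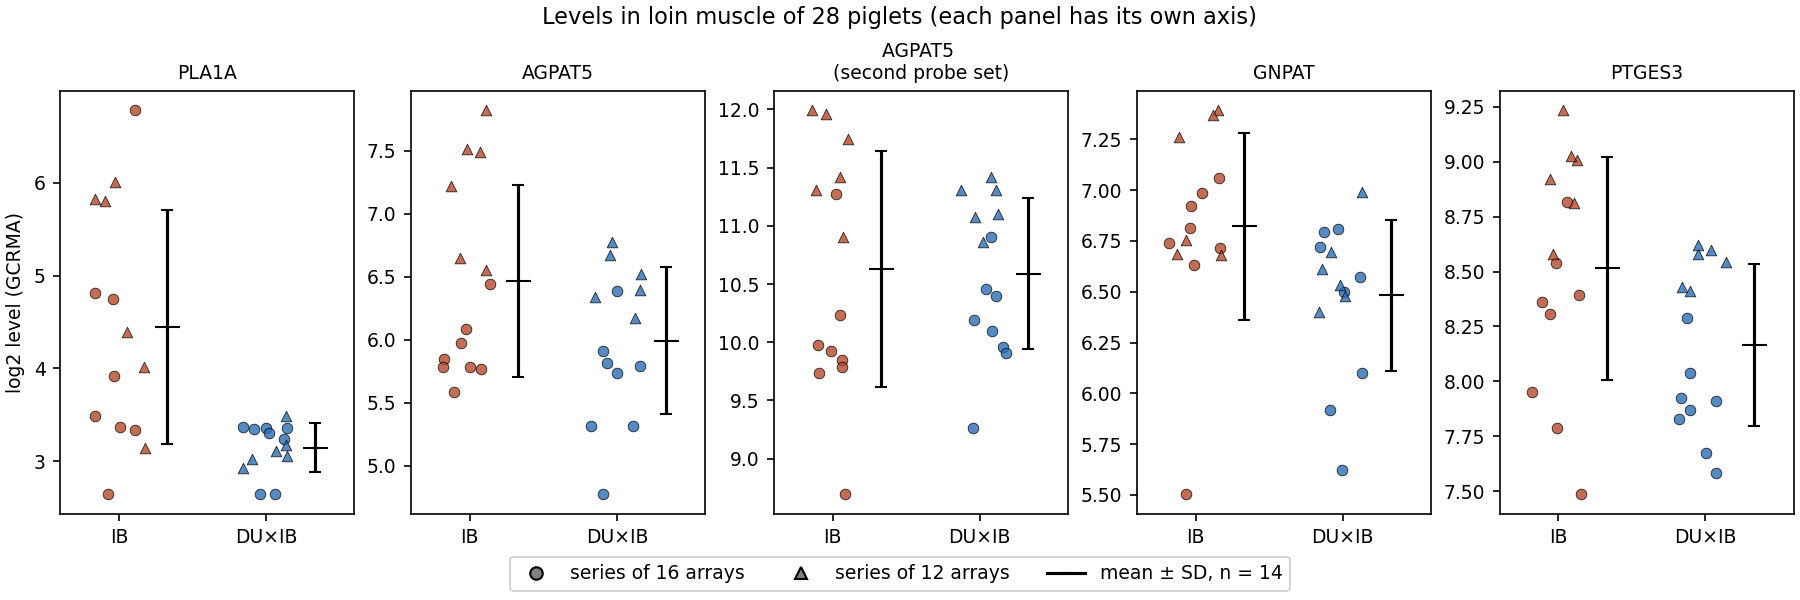
Log2 level (GCRMA) of the 5 probe sets in each of 28 piglets, with circles for the series of 16 arrays, triangles for the series of 12, and bars for the mean ± SD of 14 piglets per genetic type. PLA1A is spread from 2.65 to 6.78 in IB and gathered between 2.64 and 3.48 in DU×IB, while the other probe sets overlap broadly.

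The lower mean went with a smaller spread, since the SD of PLA1A was 4.78 times larger in IB than in DU×IB. The crossbred piglets came from fewer litters, and the part of litter in this spread was not tested. The level also has to be read against background. All 14 crossbred piglets and 6 IB piglets were under 4 on the log2 scale, where GCRMA values of silent probe sets collect. All 14 crossbred values and 10 IB values were under the lower quartile of their own array. Quartiles and percentiles here are taken over the 5226 probe sets in the table, which the study filtered for variation. The mean stood at percentile 1.61 of these probe sets in DU×IB and at 12.9 in IB. A crossbred level this low cannot be told from background with these values, so the size of the fold on these arrays rests on the background correction. The study also measured PLA1A by qPCR in RNA of these piglets. It reported a ratio like that of its arrays, which was only close to significance.

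The difference had the same sign in both series. It was -0.98 in the series of 16, with IB at 4.14 ± 1.30 and DU×IB at 3.16 ± 0.32 (n = 8 each, exact permutation p = 0.0339, two-sided). In the series of 12 it was -1.74, with IB at 4.87 ± 1.19 and DU×IB at 3.13 ± 0.19 (n = 6 each, exact permutation p = 0.00649). The difference between the series was not resolved (-0.75, 95% interval -2.07 to 0.56, limma adjusted p = 0.849). With the series as a block, limma gave an adjusted p of 0.0270, where 2.77% of all probe sets passed. In a fit of the series of 16 alone, PLA1A did not pass (limma, adjusted p = 0.997), and 0.172% of probe sets did. Fitted on the series of 12 alone, it passed (limma, adjusted p = 0.0851), and so did 4.38% of probe sets.

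The call also depends on how the spread is estimated. With a separate variance for each genetic type and no moderation over probe sets, the adjusted p of PLA1A was 0.154 over all 28 piglets.

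The IB piglets with most PLA1A were not all alike in other respects. The highest value, 6.78, was in IB piglet 1, followed by 6.01 in IB piglet 13, 5.83 in IB piglet 9 and 5.81 in IB piglet 12. The macrophage marker list, of which 8 of 15 genes were in the table, had its highest means in IB piglets 1 and 12, at 7.93 and 7.40. The other IB piglets ranged from 5.45 to 6.18 and the crossbred piglets from 5.25 to 5.91. All 8 macrophage genes had negative differences (median -0.42), where 985 of 2115 named genes did. None of the 8 passed the threshold, and none is in the study's list. IB piglet 9 had the lowest macrophage mean of its group, 5.45, with PLA1A at 5.83. Without IB piglets 1 and 12 the difference of PLA1A was -0.997 and no longer passed (limma, adjusted p = 0.134). Without IB piglet 12 alone it was -1.20 (limma, adjusted p = 0.103). In whole muscle, fewer cells of a type and less RNA per cell cannot be told apart, and the part of macrophages in the PLA1A difference was not tested beyond these values.

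The correlations of the probe sets with the marker lists were chosen after the values were seen. Among piglets of the same genetic type and series, PLA1A followed the interferon response list, of which 12 of 20 genes were in the table. On values centred by type and series, Pearson's r was 0.66 (permutation p = 0.00209, adjusted 0.0366 over 35 relations of 5 probe sets and 7 marker lists) and Spearman's rho 0.63 (permutation p = 0.00434, adjusted 0.0759). It was 0.46 without the 2 piglets farthest from the median, 0.75 within the series of 16 and 0.51 within the series of 12. Among IB piglets alone r was 0.71. It was 0.54 among DU×IB piglets, where PLA1A lies at background. All 12 interferon genes had negative differences (median -0.82), where 985 of 2115 named genes did, and none passed the threshold without a covariate. The mean of the list was highest in IB piglets 1, 13, 6 and 12, at 10.23, 9.36, 9.00 and 8.44. The lowest IB piglet, at 5.22, lay within the crossbred range of 5.02 to 7.78. IRF1, a transcription factor of the interferon response, passed with the series as a block (-0.79, limma adjusted p = 0.0929). It is in the study's list, drawn up on these same arrays, so its passing is no independent evidence. PLA1A ran against the 3 measured preadipocyte and fibroblast genes (r = -0.57, permutation p = 0.00156, adjusted 0.0366; rho = -0.58, permutation p = 0.0029, adjusted 0.0759; -0.57 without the 2 farthest piglets). This r was -0.73 in IB and -0.28 in DU×IB, whose PLA1A values lie at background, and the difference between the types was not tested. The direction was not particular to PLA1A. Against the same 3 genes rho was -0.49 for the study's AGPAT5 probe set, -0.50 for the second and -0.41 for GNPAT, but 0.08 for PTGES3. None of these passed after adjustment. Among IB piglets r was -0.76 for the study's AGPAT5 probe set. Those 3 genes had positive differences, and of them COL1A1 and AEBP1, both in the study's list, passed with the block. For the macrophage list r of PLA1A was 0.65 (permutation p = 0.0236, adjusted 0.195) and rho 0.45 (permutation p = 0.0377, adjusted 0.236), which do not pass after adjustment. Its r was 0.65 in IB and 0.52 in DU×IB, and it was 0.24 without the 2 farthest piglets, so the size of r over all piglets rests on them. Of the other lists, lymphocyte markers had no gene in the table, and muscle fibre, adipocyte, endothelium and red blood cell lists gave PLA1A an r between -0.36 and 0.24. Of these lists, 1 gene passed the threshold, RBP7 of the adipocyte list, a retinol binding protein, which was higher in DU×IB (2.87 ± 0.92 in IB and 4.45 ± 1.17 in DU×IB, n = 14, difference 1.58, limma adjusted p = 0.0309). RBP7 is also in the study's list, and its IB level is near background. The other 2 measured adipocyte genes did not pass, FABP4 at 0.37 and CFD at -0.44 (limma, adjusted p = 0.801 and 0.568). Apart from PLA1A, only the second AGPAT5 probe set passed with a list, the muscle fibre genes (r = -0.60, permutation p = 0.00437, adjusted 0.0510). Its rho did not pass (-0.34, permutation p = 0.0913, adjusted 0.400). This r was -0.86 in the series of 16, 0.45 in the series of 12 and -0.28 without the 2 farthest piglets.

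**Figure D2:**
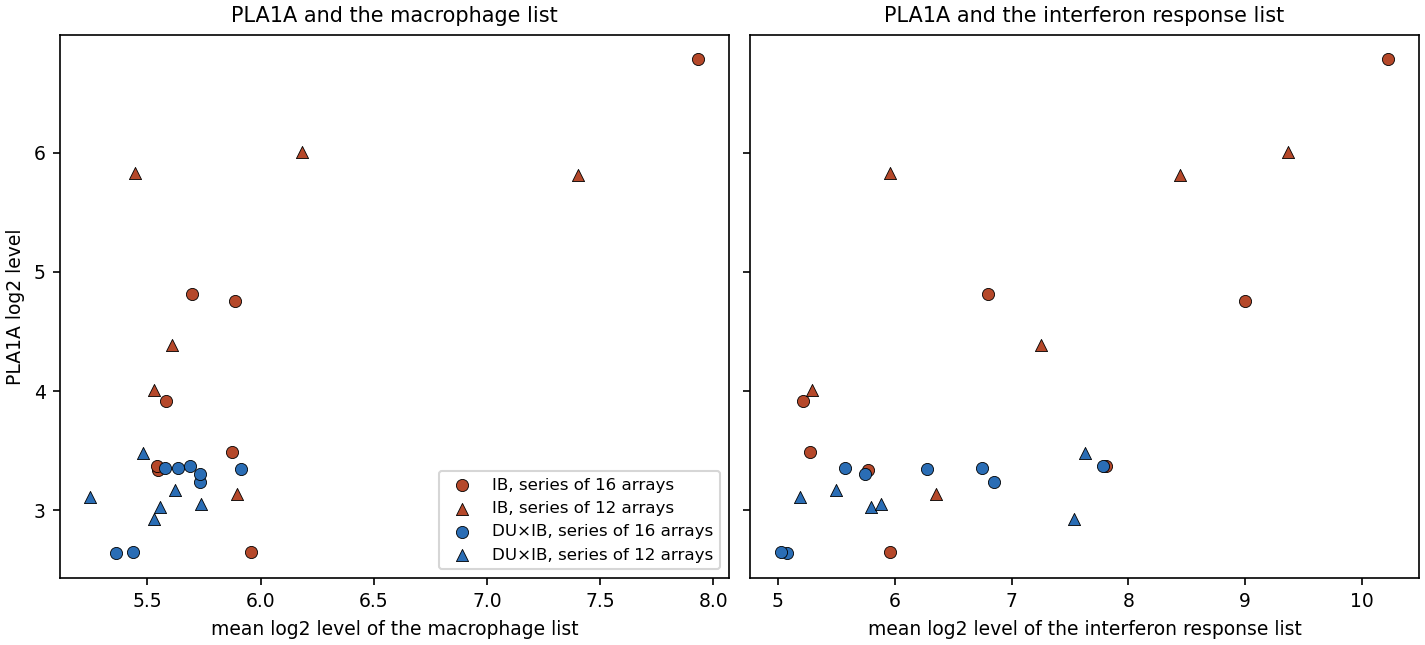
PLA1A log2 level of 28 piglets against the mean log2 level of 8 macrophage genes (left) and 12 interferon response genes (right), coloured by genetic type with a symbol for each hybridization series. IB piglets 1 and 12 stand to the right in the macrophage panel at 7.93 and 7.40. Crossbred piglets stay under a PLA1A level of 3.5 over their own range of the interferon list, 5.02 to 7.78, while IB piglets reach 10.23 on that list.

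The named genes whose centred levels were nearest to PLA1A over 28 piglets were SNX10 (r = 0.84), a sorting nexin of endosomes, N4BP1 (0.81), LOC100522887 (0.77), one probe set of the lysosomal protease gene CTSS (0.77), and MXI1 (0.76). CTSS is also on the macrophage list. SNX10 had a difference of -0.89 and passed with the block (limma, adjusted p = 0.0611), and the other 4 did not pass in either fit.

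AGPAT5 showed no called difference. On the probe set of the study its level ranged from 5.58 to 7.82 with a median of 6.27 in IB, and from 4.77 to 6.77 with a median of 6.04 in DU×IB. The 4 highest piglets were all IB piglets of the series of 12, at 7.22 to 7.82, and the remaining piglets overlapped. Means were 6.47 ± 0.76 and 5.99 ± 0.58 (SD, n = 14), a difference of -0.47 (SE 0.25, 95% interval -0.99 to 0.04, limma adjusted p = 0.651). With the series as a block the interval was -0.79 to -0.15 and the adjusted p 0.135. Levels were higher on the arrays of the series of 12 in both genetic types (7.21 against 5.91 in IB, 6.48 against 5.63 in DU×IB). The series of 16 alone gave a difference of -0.28 (exact permutation p = 0.182) and the series of 12 one of -0.73 (exact permutation p = 0.0152). With the first principal component of the residuals as a covariate AGPAT5 passed (limma, adjusted p = 0.0846), and so did 225 of all 5226 probe sets, or 4.31%.

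The second AGPAT5 probe set gave another picture. It ranged from 8.69 to 11.99 with a median of 10.57 in IB, and from 9.27 to 11.42 with a median of 10.66 in DU×IB. The crossbred range lay inside the wider IB range, with 3 IB piglets above it and 1 below, and 7 of 14 crossbred piglets were below the IB median. Means were 10.63 ± 1.02 and 10.59 ± 0.65 (SD, n = 14), a difference of -0.04 (95% interval -0.66 to 0.58, limma adjusted p = 0.998), and the sign turned with quantile normalization (0.02). The arrays of the series of 16 gave 0.21 (exact permutation p = 0.504) and those of the series of 12 gave -0.38 (exact permutation p = 0.0844).

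Both AGPAT5 probe sets nevertheless rose and fell together among piglets. Their centred levels correlated with r = 0.59 (permutation p = 0.00119, adjusted 0.0079 over 10 pairs) and rho = 0.63 (permutation p = 0.0015, adjusted 0.0075), and with 0.62 without the 2 piglets farthest from the median. The log2 ratio of the study's probe set to the second was lower in DU×IB by -0.49 in the series of 16 (exact permutation p = 0.0665) and by -0.35 among the 12 other arrays (exact permutation p = 0.0519). This comparison was chosen after the values were seen. Which transcripts each probe set detects was not analysed here. Neither probe set passed without a covariate or with the series as a block, but the size of the difference depended on the probe set. With the principal component as a covariate, only the probe set of the study passed.

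**Figure D3:**
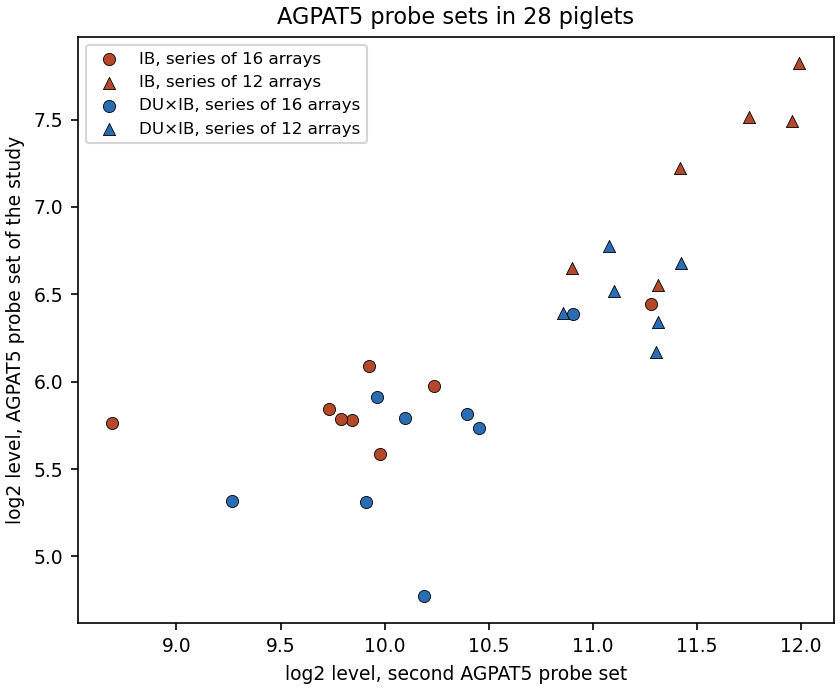
Log2 level of the AGPAT5 probe set of the study (vertical) against the second AGPAT5 probe set (horizontal) in 28 piglets, coloured by genetic type with a symbol for each hybridization series. Both probe sets are higher in the series of 12, and the 4 piglets above 7 on the vertical axis are all IB.

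The genes nearest to the study's AGPAT5 probe set were NT5C3A (r = 0.70), PHC3 (0.69), PUS3 (0.67), PIP4K2A (0.66) and EXOC8 (0.65). For the second probe set they were COPS2 (0.90), DR1 (0.87), VPS26A (0.86), MEF2A (0.86) and CCPG1 (0.85), so no gene was on both lists of 5. None of these 10 genes passed the threshold.

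GNPAT had a small difference that was not called. It ranged from 5.50 to 7.39 with a median of 6.78 in IB and from 5.62 to 6.99 with a median of 6.55 in DU×IB. The groups overlapped over most of their range, with 11 of 14 crossbred piglets below the IB median. Means were 6.82 ± 0.46 and 6.48 ± 0.37 (SD, n = 14), a difference of -0.34 (SE 0.18, 95% interval -0.70 to 0.02, limma adjusted p = 0.641; 0.319 with the series as a block). By series, the difference was -0.29 among the 16 arrays (exact permutation p = 0.233) and -0.41 among the 12 (exact permutation p = 0.0498). IB piglet 3, the lowest at 5.50, had the array with the lowest median of all. The nearest genes were NEDD4 (r = 0.78), a ubiquitin ligase, DCAF10 (0.76), LSM6 (0.75), MTF2 (0.75) and PRELID3B (0.75), whose r ran from 0.81 to 0.87 in the series of 16 and from 0.20 to 0.44 in the series of 12.

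PTGES3 also had a small difference that was not called. It ranged from 7.48 to 9.23 with a median of 8.56 in IB and from 7.58 to 8.62 with a median of 8.16 in DU×IB. Of the 14 crossbred piglets 11 were below the IB median, and 6 IB piglets were above the highest crossbred. Means were 8.52 ± 0.51 and 8.16 ± 0.37 (SD, n = 14), a difference of -0.35 (SE 0.19, 95% interval -0.73 to 0.03, limma adjusted p = 0.647; 0.151 with the series as a block). Among the arrays of the series of 16 it was -0.32 (exact permutation p = 0.0859), with all 8 crossbred piglets below the IB median of that series. Within the series of 12 it was -0.40 (exact permutation p = 0.00866), with all 6 below. The nearest genes were KPNA1 (r = 0.60), ZDHHC16 (0.58), GARS (0.55), ZDHHC4 (0.55) and SERPINA1 (0.53). Their r ran from 0.56 to 0.69 in the series of 16. In the series of 12 it was 0.72 for KPNA1, 0.50 for ZDHHC4, 0.28 for ZDHHC16, 0.04 for SERPINA1 and -0.06 for GARS. SERPINA1 was near background, at 3.65 in IB and 3.67 in DU×IB.

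**Figure D4:**
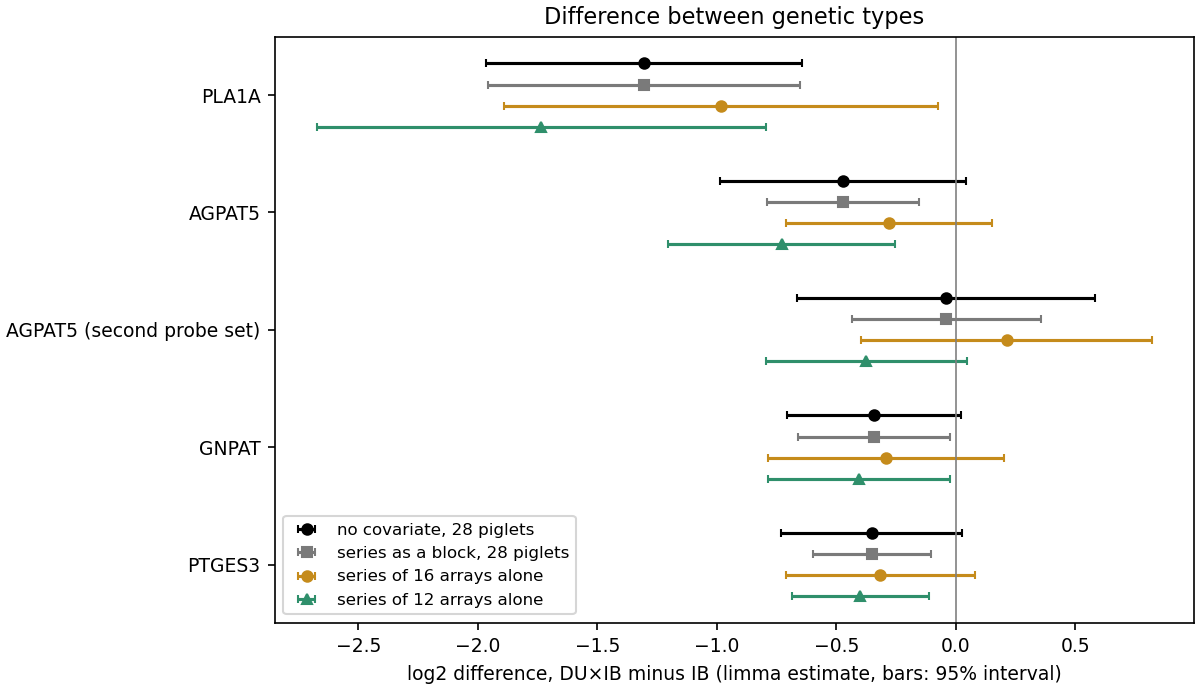
Difference in log2 level, DU×IB minus IB, of the 5 probe sets with 95% intervals from limma, for all 28 piglets without a covariate, for all 28 with the block of series, and for each hybridization series alone. The intervals of PLA1A lie below 0 in all 4 fits, while that of the second AGPAT5 probe set includes 0 in each.

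The 10 exact tests within series are given unadjusted. With the series as a block the unadjusted p was under 0.05 for the 4 probe sets in the study's list, where 5.4% of all probe sets were that low and higher in IB, but the list was drawn up on these arrays. No interaction of genetic type with series passed for any of the 5 (limma, adjusted p from 0.802 to 0.943). Over all 5226 probe sets 0 interactions passed, with 333 at an unadjusted p under 0.05.

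Across piglets of the same type and series, PLA1A and both AGPAT5 probe sets varied together, and no correlation with PTGES3 passed. Of 10 pairs, PLA1A correlated with the study's AGPAT5 probe set at r = 0.55 (permutation p = 0.00206, adjusted 0.0079; rho = 0.57, permutation p = 0.00493, adjusted 0.0164) and with the second at r = 0.67 (permutation p = 0.00237, adjusted 0.0079; rho = 0.53, permutation p = 0.0105, adjusted 0.0263). Without the 2 piglets farthest from the median these were 0.42 and 0.43. Within the series of 16 they were 0.38 and 0.61, and within the series of 12 they were 0.81 and 0.87. Among IB piglets alone they were 0.79 (permutation p = 0.00107, adjusted 0.0107) and 0.76 (permutation p = 0.00418, adjusted 0.0139). Among DU×IB piglets, with PLA1A at background, they were 0.10 (permutation p = 0.756) and 0.35 (permutation p = 0.326), and the difference between the types was not tested. GNPAT correlated with the second AGPAT5 probe set at r = 0.61 (permutation p = 0.0076, adjusted 0.019; rho = 0.68, permutation p = 0.00051, adjusted 0.0051), and at 0.61 without the 2 farthest piglets. IB piglets 9, 12 and 13 held the 3 highest levels of their series for PLA1A, both AGPAT5 probe sets and GNPAT. Their array medians, 7.02, 6.97 and 6.99, were within the range of that series. The 4 pairs with PTGES3 had r between -0.07 and 0.05. When the series was not taken off, PTGES3 correlated with the AGPAT5 probe sets at 0.67 and 0.62, a relation that did not hold within either series.

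Around these enzymes, 5 lists of pathway genes held 59 measured genes of 286 listed, 12 of them in the study's list. PLA1A, itself in that list, was the only one that passed (1 of 59), where 2.03% of all named genes passed, so the share in the lists was about that of all genes. Over the 59 genes, 20 differences were positive and 39 negative with a median of -0.10, where the median of all named genes was 0.02. With the series as a block PTPMT1, also in the study's list, passed too. In that fit 96 of 2115 named genes passed as higher in DU×IB and 34 as higher in IB, so the lists held no excess of calls.

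Of 65 phospholipase genes 10 were measured, 2 with a positive and 8 with a negative difference (median -0.17). After PLA1A, the lowest p belonged to PNPLA4, a patatin-like lipase, at 3.19 ± 0.33 in IB and 3.63 ± 0.47 in DU×IB (n = 14), a difference of 0.44 (limma, adjusted p = 0.401). Both means of PNPLA4 are near background. PLCD1, a phosphoinositide-specific phospholipase C, differed by -0.46 without passing (limma, adjusted p = 0.458).

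Of 66 genes of glycerophospholipid synthesis 11 were measured, 6 positive and 5 negative (median 0.25). AGPAT5 therefore stood on the negative side of a list whose median was positive. PTPMT1, a mitochondrial phosphatase of cardiolipin synthesis, was 8.14 ± 0.74 in IB and 8.79 ± 0.35 in DU×IB (n = 14), a difference of 0.66 that passed only with the series as a block (limma, adjusted p = 0.255, and 0.0929 with the block). AGK, a mitochondrial acylglycerol kinase, differed by 0.68 (limma, adjusted p = 0.408). Its means, 3.30 in IB and 3.98 in DU×IB, were both near background. LPCAT3, a lysophosphatidylcholine acyltransferase, differed by 0.60 (limma, adjusted p = 0.563). Of the crossbred piglets, 13 of 14 lay above the IB median for PTPMT1 and for LPCAT3, and 11 of 14 for AGK.

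Of 65 ether lipid and peroxisome genes 10 were measured, 4 positive and 6 negative (median -0.02), and none passed. FAR1, which makes the fatty alcohols of ether lipids, was at 5.69 in both genetic types (95% interval of the difference -0.74 to 0.74). EPHX2, the soluble epoxide hydrolase, was 8.05 ± 0.64 in IB and 7.48 ± 0.45 in DU×IB (n = 14), with all 14 crossbred piglets below the IB median, yet its difference of -0.56 was not called (limma, adjusted p = 0.361). ACBD5, an acyl-CoA binding protein of the peroxisome membrane, differed by -0.22 (limma, adjusted p = 0.998).

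Of 50 prostaglandin and leukotriene genes 11 were measured, 4 positive and 7 negative (median -0.22), and none passed. ALOX5AP, which presents arachidonic acid to its lipoxygenase, differed by -0.50 (limma, adjusted p = 0.291). Its means, 4.14 in IB and 3.64 in DU×IB, were near background. PTGDS, a prostaglandin D synthase, was 7.63 ± 0.88 in IB and 7.11 ± 0.47 in DU×IB (n = 14), again with all 14 crossbred piglets below the IB median (difference -0.52, limma adjusted p = 0.585). PTGS1, the constitutive cyclooxygenase, had a difference of -0.16 (95% interval -0.53 to 0.22).

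Of 42 genes of the HSP90 chaperone cycle, the other setting in which PTGES3 acts, 19 were measured, 4 positive and 15 negative (median -0.10), and none passed. CDC37L1, a relative of the kinase co-chaperone CDC37, differed by 0.60, with all 14 crossbred piglets above the IB median (limma, adjusted p = 0.367). HSPH1, a heat shock chaperone, differed by -0.58 (limma, adjusted p = 0.920). HSP90AA1 itself had a difference of -0.04 (95% interval -0.56 to 0.48). EPHX2 and PTGES3 are each on 2 of the lists and are counted once in the total. FAR1, PTGS1 and HSP90AA1 were named for their roles after their values were seen.

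**Figure D5:**
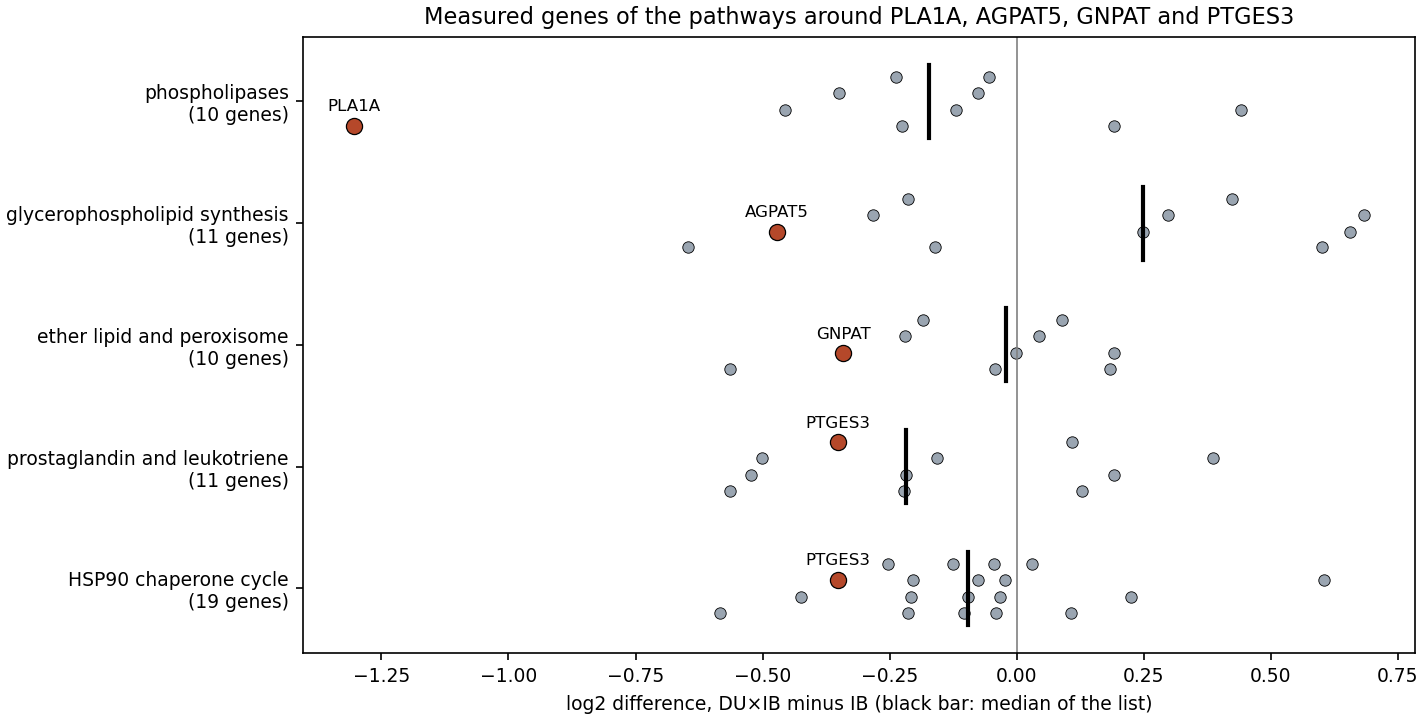
Difference in log2 level, DU×IB minus IB, of every measured gene of the 5 pathway lists (1 point a gene, 14 piglets a group), with the 4 named enzymes in red and the median of each list as a black bar. PLA1A at -1.30 lies apart from all other genes, and the medians run from -0.22 to 0.25.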

How the data were processed

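Loin RNA of 28 piglets was measured with 1 porcine genome array each. The authors scanned with GCOS and deposited log2 values made with GCRMA in BRB-ArrayTools, which corrects background by probe sequence and quantile normalizes; array medians still differ. The table holds 5226 probe sets, and each met the variation filter of the study when checked (over 20% of values at least 1.5-fold from the median), so genes that hardly vary are missing from every list. The study's names cover 271 probe sets and the array annotation 2209; 48 match several genes and 2698 none. No scanner files or detection calls were used. Precision is limited by how many arrays there are. The files name no genome build, so no coordinates are given.

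Genetic types came from the labels. limma 3.58.1 (R 4.3.3; lmFit and eBayes, no covariate, two-sided) was fitted to all probe sets, the 53 control probe sets included, with Benjamini-Hochberg adjustment and a threshold of 0.10. The study's model held the hybridization series, which the labels do not give. Here the series was recovered from spike-in controls and used as a block. Exact permutation tests compared the types within a series (12870 and 924 splits), and correlations used 100000 permutations within type and series. A gene of a list was represented by its probe set in the study's list, otherwise by that of highest mean. Named genes are the 4 enzymes, the 3 of lowest p in each pathway list with those past the threshold, and the 5 nearest genes per probe set by r. The enzymes and lists were chosen with earlier results of these data known. Alternatives were series, normalization, covariates, weights, prior, filter, Welch's test and leaving out piglets. The code was tested on simulated data.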

Additional observations from a re-analysis of the deposited data

Results flagged for a closer look

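GNPAT in the 8 IB piglets of the series of 16 had 1 value far from the others. IB piglet 3 was at 5.50, and its gap to the next piglet was 0.723 of the range of the group. Of 20 groups of a probe set, genetic type and series examined in this way, this was the only one, and chance flags about 1 in 20. The array of IB piglet 3 had the lowest median of all, 6.01. On that array GNPAT stood at percentile 41.4 of the probe sets in the table, the lowest among IB piglets. Without this array and that of DU×IB piglet 3, the lowest in median of its own group, the difference of GNPAT was -0.41 (limma, adjusted p = 0.374).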

How the results depend on the processing

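PLA1A was lower in DU×IB under all 13 alternatives and in each leave-one-out fit (-1.44 to -1.12). It lost its call with Welch's test (-1.30), within the series of 16 (-0.98), without IB piglets 1 and 12, an alternative added after the data were seen (-0.997), and without IB piglet 12 alone (adjusted p = 0.103). AGPAT5 passed only with a covariate for the first principal component of the residuals (-0.47). GNPAT and PTGES3 kept a negative sign and stayed uncalled throughout. The second AGPAT5 probe set, near 0 and never called, turned positive within the series of 16 (0.21), with quantile normalization (0.0196), with array weights (0.0443) and without IB piglets 1 and 12 (0.13), and ran from -0.19 to 0.0656 as each piglet was left out.

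The count of probe sets past the threshold, 52, became 145 with a block for series, 229 within the series of 12, 9 within the series of 16, 225 with the principal component, 96 with array weights, and 34 (without DU×IB piglet 7) to 66 as each piglet was left out. Of the pathway genes, 1 of which passed, 2 passed with a block for series and with array weights, 5 within the series of 12, 8 with the principal component, and 0 within the series of 16, with Welch's test and without IB piglets 1 and 12. Leaving out each piglet gave 0 (without IB piglet 12) to 2 (without IB piglet 2 or 4). The cause of these changes was not tested.

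Replicate numbers 1 to 8 are the series of 16 and 9 to 14 the series of 12 in both types. After the series was taken off, 2 of 14 same-numbered pairs correlated above 0.1 and 1 of 14 arrays correlated best with its own number, so the numbers do not pair the piglets. With the replicate block 145 probe sets and 2 pathway genes passed.

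The correlation of PLA1A with the second AGPAT5 probe set was 0.43 without the 2 farthest piglets. Centred on genetic type only, AGPAT5 correlated with GNPAT at 0.44 and with PTGES3 at 0.67, the second AGPAT5 probe set with PTGES3 at 0.62, and PLA1A with PTGES3 at 0.15. Without the 2 farthest piglets the pairs with PTGES3 were 0.12 for PLA1A, -0.00907 for AGPAT5 and 0.10 for the second probe set. PLA1A levels near background limit these results, and so do the litters, which are unknown per piglet and fewer than the piglets, above all in DU×IB.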
